A study of Mus musculus with 26 samples.

Results

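The circadian clock of the mouse liver was examined by asking how the difference between 2 circadian times depended on Bmal1, and the measurement throughout is the genotype by time interaction. This is the CT12 minus CT0 difference in knockout livers minus that in control livers, on the log2(RPKM + 0.5) scale. RPKM is the number of reads per kilobase of transcript, scaled to library depth. All 12 RNA-seq libraries of the Bmal1 experiment were used, of 26 samples in the study, with 3 libraries in each of 4 groups: knockout at CT12, knockout at CT0, control at CT12 and control at CT0. Each symbol was represented by 1 transcript, the one with the highest mean log2 value, and 11444 of 22322 symbols reached an average of 0.5 RPKM and were tested. An interaction above 0 means that CT12 lay higher relative to CT0 in knockout livers than in control livers.

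The knockout mice are labelled Bmal1 knockout and described as liver-specific, and the controls are labelled C57BL/6 and described as wild type. The strain background of the knockouts, the driver of the deletion and any allele in the controls are not stated in the labels. All mice were 8 weeks old and lived in a light-dark cycle with free access to food. They were moved to constant darkness 2 days before they were killed, and CT0 is the time at which lights had come on. The labels describe 3 pairs of mice and RNA taken from each liver, so libraries are treated as separate animals. The other 14 samples are 8 RNA-seq libraries of an Nr1d1 experiment, quoted near the end as values with no test, and 6 chromatin-contact libraries not used here.

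BMAL1, encoded by Arntl, pairs with CLOCK or NPAS2 and activates genes that carry E-boxes, among them the Period and Cryptochrome repressors, the nuclear receptors REV-ERB alpha and beta (Nr1d1, Nr1d2) and the PAR bZIP factors Dbp, Tef and Hlf. The repressors act back on BMAL1, while the REV-ERBs repress Arntl, Clock, Npas2 and other genes through an element that the activating ROR receptors also bind. In the liver this loop sets the daily timing of lipid, bile acid, glucose and drug metabolism, and part of that timing also comes from feeding and hormones that reach the liver from outside.

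Promoter sequences of clock genes with large interactions are shown first because the groups of genes described below are commonly sorted by these elements. They are RefSeq sequences of build GRCm38.p6, 250 bases before to 50 bases after the annotated start, printed 5′ to 3′ on the gene's strand in lower case. Capitals mark a match on either strand to an E-box (CACGTG), a D-box (TTANGTAA, the element of the PAR bZIP factors) or a REV-ERB and ROR element (TAGGTCA), and no matches overlapped. Arntl (chr7:113207261-113207560, plus strand) and Npas2 (chr1:39194022-39194321, plus strand) had the largest called interactions above 0 among the clock genes. Gm129, which RefSeq names Ciart (chr3:95882179-95882478, minus strand), and Per3 (chr4:151044616-151044915, minus strand) had the largest below 0.
Arntl: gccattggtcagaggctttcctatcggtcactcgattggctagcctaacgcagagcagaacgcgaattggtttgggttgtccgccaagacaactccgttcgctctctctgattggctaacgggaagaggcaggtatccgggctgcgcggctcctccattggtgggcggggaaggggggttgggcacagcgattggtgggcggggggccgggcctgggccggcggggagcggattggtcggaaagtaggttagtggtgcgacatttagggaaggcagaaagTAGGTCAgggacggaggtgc
Npas2: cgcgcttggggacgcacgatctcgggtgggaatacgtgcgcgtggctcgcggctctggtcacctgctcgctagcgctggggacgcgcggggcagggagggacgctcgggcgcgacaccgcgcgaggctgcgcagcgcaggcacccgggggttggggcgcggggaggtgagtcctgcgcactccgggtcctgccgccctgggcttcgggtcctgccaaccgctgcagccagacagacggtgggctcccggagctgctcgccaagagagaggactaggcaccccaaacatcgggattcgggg
Gm129: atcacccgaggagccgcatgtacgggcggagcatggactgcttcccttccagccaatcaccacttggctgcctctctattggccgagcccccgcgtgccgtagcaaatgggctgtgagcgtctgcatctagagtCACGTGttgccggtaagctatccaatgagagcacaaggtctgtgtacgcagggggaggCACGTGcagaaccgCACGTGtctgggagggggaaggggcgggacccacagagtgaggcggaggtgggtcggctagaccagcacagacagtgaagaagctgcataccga
Per3: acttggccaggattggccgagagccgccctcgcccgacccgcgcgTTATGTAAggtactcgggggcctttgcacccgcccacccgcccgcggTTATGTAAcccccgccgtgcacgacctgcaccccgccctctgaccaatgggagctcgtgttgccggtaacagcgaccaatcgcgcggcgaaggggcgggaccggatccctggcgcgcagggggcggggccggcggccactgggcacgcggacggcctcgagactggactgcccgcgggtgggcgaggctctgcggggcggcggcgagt
The Arntl window holds 1 TAGGTCA, 31 bases after the start. The Gm129 window holds 3 E-boxes, which begin at positions -116, -58 and -44 relative to the start, and the Per3 window holds 2 D-boxes, at -205 and -158. None of the 3 motifs was found in the Npas2 window.

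Most of the interaction lay in genes that changed between CT12 and CT0 in control livers and changed less in knockout livers. Of the 11444 genes, 151 were called (limma, Benjamini-Hochberg adjusted p under 0.05), which is 1.32% of those tested. Of these, 111 (0.97%) were above 0 and 40 (0.35%) below 0, and 1358 genes had an unadjusted p under 0.05. The median interaction of all genes tested was 0.07, and 61.6% of them lay above 0. With the libraries scaled by the median of ratios instead, 148 genes were called, of which 57.4% were above 0, against 73.5% with the deposited scaling, and the median of all genes was -0.01. The interaction kept its sign under that scaling in all 151 genes.

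Among the 111 genes above 0, 110 were lower at CT12 than at CT0 in control livers. Their median time difference was 0.01 in knockout livers and -1.08 in control livers. All 40 genes below 0 were higher at CT12 than at CT0 in control livers, and their median time difference was -0.04 in knockout livers and 1.21 in control livers. In 123 of the 151 genes the time difference in knockout livers was less than 0.5 times the size of that in control livers. It was smaller with the same sign in 69, larger with the same sign in 1 and of opposite sign in 81. The time difference was itself called in control livers alone for 133 genes, in knockout livers alone for 6, in both for 10 and in neither for 2. Over all 11444 genes the time difference was called in 2.11% in knockout livers and in 11% in control livers. Over all genes tested, the median size of the time difference was 0.17 in knockout livers and 0.19 in control livers. The gap between genotypes was larger at CT12 than at CT0 in 141 of the 151, with a median of 1.12 at CT12 and 0.05 at CT0 for the genes above 0 and of -1.17 at CT12 and 0.08 at CT0 for those below 0.

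**Figure D1:**
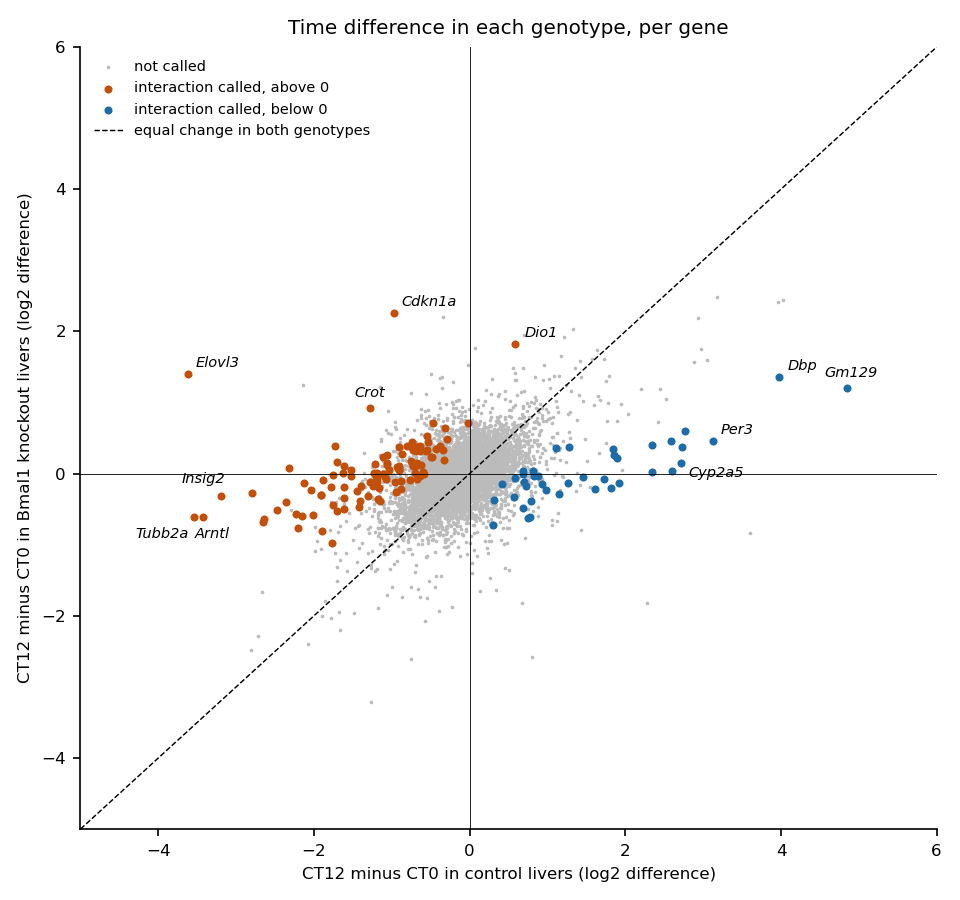
Each point is 1 of the 11444 genes tested, with its CT12 minus CT0 difference (log2) in Bmal1 knockout livers on the vertical axis and in control livers on the horizontal axis. The 111 genes called above 0 (orange) lie mostly at the left near the horizontal line, and the 40 called below 0 (blue) at the right near it, while the dashed line marks equal differences.

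The number of calls depended on single libraries. With each library left out in turn, between 81 and 141 genes were called. The count fell by more than 1.5 times without knockout CT12 replicate 2 (92 genes) or replicate 3 (88), control CT12 replicate 1 (91) or replicate 3 (89), or control CT0 replicate 1 (99), replicate 2 (81) or replicate 3 (92). Of the 151 genes, 68 were called in all 12 of these fits, and every one of the 151 kept its sign in each fit that tested it. Relative depth, read from the spacing of low RPKM values, differed by up to 1.66 times between libraries, with the 3 control CT0 libraries the deepest of any group.

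The tissue label held against its markers. All 9 hepatocyte markers measured were detected, and Alb alone took 3.20% to 4.74% of the summed RPKM in knockout livers and 6.09% to 8.05% in control livers. Markers of 9 other cell types were also summed, and no marker of any type had a called interaction. The 5 erythroid markers tested were all above 0, against 61.6% of all genes tested, with a median interaction of 1.27. Of these markers 3 had an unadjusted limma p under 0.05, against 1358 of the 11444 genes tested. The sum of the 7 erythroid markers ran from 246 to 307 RPKM in knockout livers at CT12 and from 213 to 223 RPKM in knockout livers at CT0, against 107 to 190 RPKM in control livers at CT12 and 160 to 380 RPKM in control livers at CT0. All 10 macrophage markers were above 0, against the same 61.6%, with a median of 0.25, and 0 of them had an unadjusted limma p under 0.05. Without knockout CT12 replicate 3, 8 of the 10 macrophage markers were above 0, with a median of 0.095. The 8 neutrophil markers tested had a median of -0.12. The markers with the smallest p in their lists included Hbb-b2 of red cells (1.56 ± 0.42, limma adjusted p = 0.115) and Cela1 of acinar cells (0.86 ± 0.32, limma adjusted p = 0.284). Those of macrophages (Marco), endothelium (Stab2), stellate cells (Reln), neutrophils (Mpo) and lymphocytes (Cd3g) had adjusted p-values of 0.554, 0.599, 0.600, 0.704 and 0.724. The part of these cells in the called genes was not tested. In whole-liver RNA, fewer cells of a type and less RNA per cell cannot be told apart. Of the adipocyte markers, Lep and Retn were at 0 in every library, and Pnlip and Cpa1 of the acinar markers were as well.

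In the activating limb of the clock, Arntl, Npas2 and Clock were called above 0. They were the 3 members called above 0 of 5 tested, whose median interaction was 1.03, and not every member is reported here. Over all genes tested, 0.97% were called above 0. Members of the lists were chosen with earlier results of these data known, so counts in a list are not read as results about it. Arntl had 4.37, 3.59 and 4.01 RPKM at CT12 and 5.91, 5.73 and 7.45 RPKM at CT0 in knockout livers, against 1.26, 0.680 and 1.21 RPKM at CT12 and 16.3, 15.7 and 15.7 RPKM at CT0 in control livers. The 4 groups did not overlap, and the interaction was 2.82 ± 0.22 (SE, limma adjusted p = 0.000146): Arntl fell by 3.43 in control livers, and its difference was -0.61 in knockout livers. The Arntl RPKM covers the whole transcript, so a deletion of part of the gene would not be seen in it. Arntl was lower in livers labelled knockout than in control livers at CT0 but higher at CT12, and its level therefore does not check the genotype labels at CT12.

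Npas2, the paralog of CLOCK that also pairs with BMAL1, had 3.85, 3.19 and 3.37 RPKM at CT12 and 4.99, 4.35 and 4.82 RPKM at CT0 in knockout livers, against 0.0293, 0.0161 and 0.0176 RPKM at CT12 and 1.99, 2.68 and 1.94 RPKM at CT0 in control livers. The control CT12 values stood for 2, 1 and 1 recovered reads, on a scale shared by all libraries, against at least 139 in every other library. The interaction of Npas2 was 1.97 ± 0.19 (SE, limma adjusted p = 0.000368) and, being on a scale with 0.5 RPKM added, understates the change of so low a value. Clock had 14.3, 13.6 and 14.1 RPKM at CT12 and 13.8, 13.2 and 12.4 RPKM at CT0 in knockout livers, against 7.33, 4.59 and 8.10 RPKM at CT12 and 12.6, 13.5 and 12.6 RPKM at CT0 in control livers. Control livers at CT12 lay below the other groups. Its interaction of 1.03 ± 0.22 (SE, limma adjusted p = 0.0446) was just inside the threshold and was called in only 2 of the 12 fits with a library left out, those without control CT12 replicate 2 or replicate 3 (highest adjusted p = 0.123).

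Rora, which encodes ROR alpha, had an interaction of 0.29 ± 0.16 (SE, limma adjusted p = 0.521) and was not called, and Rorb, at 0 in 11 of the 12 libraries, was not tested.

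Of 10 repressors of the clock, 3 were called below 0 (Per2, Per3 and Gm129) and none above 0. Of the 10 estimates, 9 were below 0, with a median of -1.30. Over all genes tested, 0.35% were called below 0 and 38.4% of estimates lay below 0. Per2 had 6.43, 6.08 and 4.17 RPKM at CT12 and 5.39, 3.38 and 3.11 RPKM at CT0 in knockout livers, against 8.95, 10.8 and 10.1 RPKM at CT12 and 1.5, 0.964 and 1.28 RPKM at CT0 in control livers. Per3 had 1.63, 1.94 and 1.67 RPKM at CT12 and 1.45, 1.23 and 0.785 RPKM at CT0 in knockout livers, against 6.21, 9.22 and 5.57 RPKM at CT12 and 0.309, 0.386 and 0.326 RPKM at CT0 in control livers. For both Period genes control livers at CT12 were above every other group, control livers at CT0 were below every other group, and knockout livers lay between at both times. The interaction was -2.13 ± 0.29 for Per2 (SE, limma adjusted p = 0.00356) and -2.67 ± 0.27 for Per3 (SE, limma adjusted p = 0.000504).

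Gm129 encodes CHRONO, a repressor that binds BMAL1. It had 0.373, 3.45 and 1.57 RPKM at CT12 and 0.180, 0.378 and 0.469 RPKM at CT0 in knockout livers, against 14.5, 15.2 and 21.2 RPKM at CT12 and 0.142, 0 and 0.159 RPKM at CT0 in control livers. Its largest value in knockout livers, in CT12 replicate 2, was below every control value at CT12. Its recovered reads were 2, 17 and 8 in knockout livers at CT12 and 1, 2 and 2 in knockout livers at CT0, against 87, 83 and 106 in control livers at CT12 and 1, 0 and 1 in control livers at CT0. The interaction of -3.64 ± 0.58 (SE, limma adjusted p = 0.00911) was the largest below 0 of all genes called.

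The other 7 repressors were not called. Per1 had 7.97, 5.94 and 5.16 RPKM at CT12 and 3.52, 0.566 and 1.41 RPKM at CT0 in knockout livers, against 6.50, 7.96 and 8.72 RPKM at CT12 and 0.640, 0.848 and 0.239 RPKM at CT0 in control livers. CT12 was above CT0 in both genotypes, and its interaction was -1.22 ± 0.55 (SE, limma adjusted p = 0.402). Cry1 had 16.0, 16.0 and 17.7 RPKM at CT12 and 17.4, 16.5 and 17.5 RPKM at CT0 in knockout livers, against 4.90, 4.41 and 4.90 RPKM at CT12 and 5.16, 5.32 and 4.06 RPKM at CT0 in control livers. Knockout livers were above control livers at both times with no overlap, and the interaction of Cry1 was -0.02 ± 0.15 (SE, limma adjusted p = 0.976), the smallest in size of the clock genes. Its sign was opposite with sample weights and in 5 of the fits with a library left out. Cry2 had an interaction of -0.44 ± 0.21 (SE, limma adjusted p = 0.449).

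Nr1d1 had 0.968, 1.61 and 1.56 RPKM at CT12 and 0.271, 0.310 and 0.801 RPKM at CT0 in knockout livers, against 2.35, 2.95 and 1.56 RPKM at CT12 and 2.04, 2.05 and 6.57 RPKM at CT0 in control livers. Control CT0 replicate 3 was above all other libraries, and the interaction of 1.38 ± 0.52 (SE, limma adjusted p = 0.296) was not called. Nr1d2 had 2.81, 4.89 and 4.24 RPKM at CT12 and 1.71, 1.49 and 2.02 RPKM at CT0 in knockout livers, against 17.5, 19.4 and 17.0 RPKM at CT12 and 3.59, 3.21 and 6.83 RPKM at CT0 in control livers. Control CT12 was the highest group without overlap, but the interaction of -0.96 ± 0.34 (SE, limma adjusted p = 0.258) was not called either. Bhlhe40, a repressor that competes for E-boxes, had an interaction of -1.37 ± 0.30 (SE, limma adjusted p = 0.0517), just outside the threshold, and was called in 2 of the 12 fits with a library left out. Bhlhe41 had one of -1.61 ± 1.19 (SE, limma adjusted p = 0.651).

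Among the 4 factors that act through D-boxes, Dbp and Tef were called below 0, Hlf and Nfil3 were not, and the median was -1.28. The share called below 0 over all genes tested was 0.35%. Dbp, a direct BMAL1 target used as a readout of E-box activity, had 3.29, 8.11 and 4.66 RPKM at CT12 and 1.51, 1.84 and 1.63 RPKM at CT0 in knockout livers, against 21.7, 33.4 and 17.3 RPKM at CT12 and 0.661, 1.25 and 1.18 RPKM at CT0 in control livers. Control livers at CT12 were above all others, and the interaction was -2.62 ± 0.41 (SE, limma adjusted p = 0.00900), with a time difference of 1.36 in knockout livers and 3.98 in control livers, both called. Tef had 21.4, 26.3 and 22.4 RPKM at CT12 and 19.6, 15.5 and 17.6 RPKM at CT0 in knockout livers, against 45.1, 45.0 and 46.9 RPKM at CT12 and 8.76, 9.37 and 7.69 RPKM at CT0 in control livers. The 4 groups of Tef did not overlap, and its interaction of -1.94 ± 0.16 (SE, limma adjusted p = 0.000146) was called in all 12 fits with a library left out. Hlf, the third PAR bZIP factor, had -0.63 ± 0.27 (SE, limma adjusted p = 0.371), and Nfil3, the repressor that competes with them for D-boxes, had 0.90 ± 0.22 (SE, limma adjusted p = 0.0868). Of 14 modifiers of the clock, such as kinases and deacetylases, 1 was called, against 1.32% of all genes tested. It was Nampt, which is described with the metabolic genes.

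**Figure D2:**
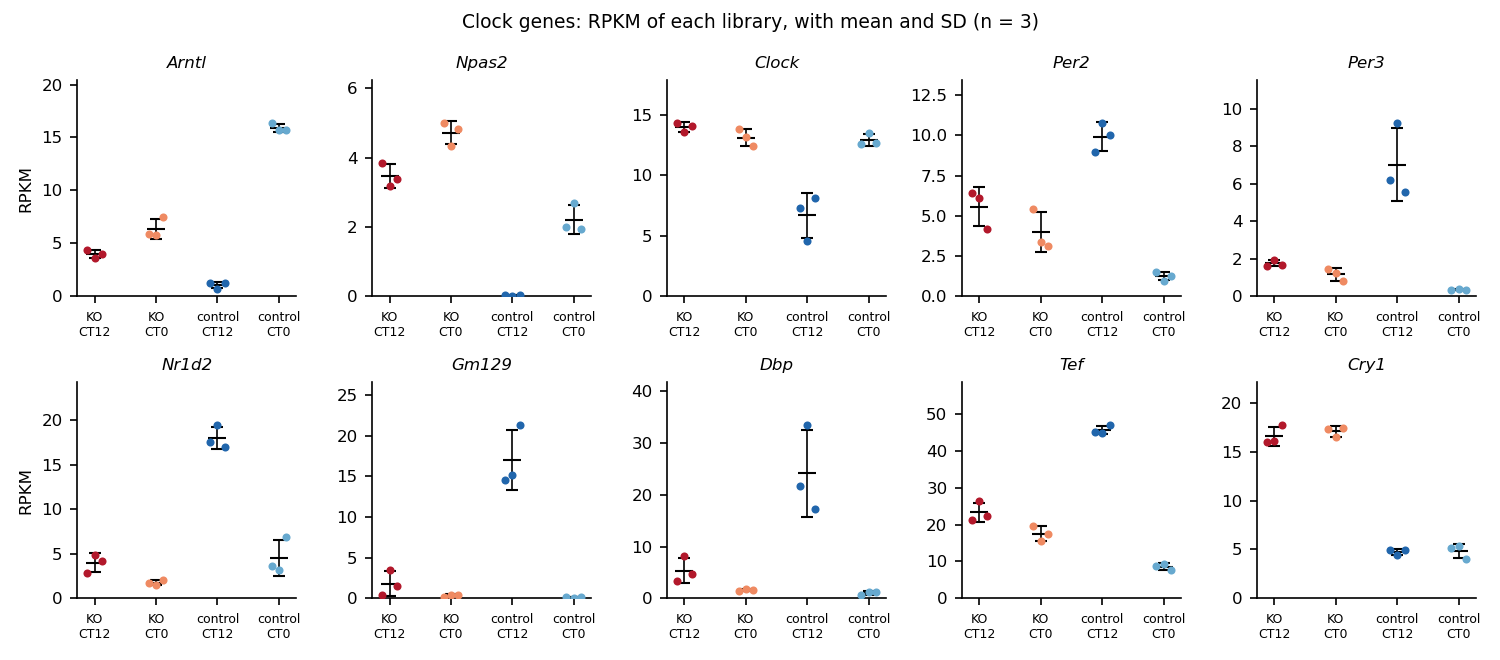
RPKM of each library (points) for 10 clock genes, with the mean and SD of 3 libraries (bars), in the order knockout CT12, knockout CT0, control CT12 and control CT0. Arntl, Npas2 and Clock are lowest in control livers at CT12, Per2, Per3, Nr1d2, Gm129, Dbp and Tef are highest there, and Cry1 differs between genotypes but little between times.

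A list of 10 genes repressed by REV-ERB in mouse liver held 6 genes called above 0 and none below 0, with a median of 1.69. Over all genes tested, 0.97% were called above 0 and 0.35% below 0. This list too was chosen with earlier results of these data known, and its count is not read as a result about it. Arntl, Clock and Npas2 are among the 6 and were already counted in the activating limb. The other called members were Elovl3, Insig2 and Cdkn1a. Elovl3 encodes an enzyme that lengthens very long chain fatty acids and also counts in the lipogenesis list. It had 239, 295 and 185 RPKM at CT12 and 84.0, 97.6 and 85.9 RPKM at CT0 in knockout livers, against 7.18, 7.31 and 7.13 RPKM at CT12 and 84.5, 118 and 84.6 RPKM at CT0 in control livers. The 3 control CT12 values were nearly equal and far under all other libraries, and the knockout CT12 values were the highest. The interaction of 5.02 ± 0.23 (SE, limma adjusted p = 6.7e-07) was the largest of all genes, and Elovl3 was called upward in knockout livers (1.40) and downward in control livers (-3.62).

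Insig2, which anchors SCAP and so restrains cholesterol synthesis, had 152, 184 and 281 RPKM at CT12 and 229, 232 and 286 RPKM at CT0 in knockout livers, against 18.5, 14 and 28.1 RPKM at CT12 and 173, 171 and 205 RPKM at CT0 in control livers. Control livers at CT12 did not overlap the other groups, and the interaction was 2.88 ± 0.35 (SE, limma adjusted p = 0.00179). Cdkn1a, which encodes the cell cycle inhibitor p21, had 12.8, 10.2 and 14.3 RPKM at CT12 and 4.71, 1.54 and 1.32 RPKM at CT0 in knockout livers, against 0.227, 0.606 and 1.52 RPKM at CT12 and 2.47, 1.32 and 1.80 RPKM at CT0 in control livers. All knockout CT12 values were above all others, which was the reverse of the usual shape: Cdkn1a differed by 2.26 in knockout livers, where it was called, and by -0.98 in control livers, where it was not. Its interaction was 3.23 ± 0.58 (SE, limma adjusted p = 0.0186) and was not called without knockout CT12 replicate 3 or without control CT0 replicate 1 (highest adjusted p = 0.0571).

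Few lipid genes were called, and 1.32% of all genes tested were called, so these counts are not read as a result about the lists. The same share stands beside the counts of the lists that follow. Of 27 cholesterol genes, Insig2 was the only one called (median 0.21), of 33 lipogenesis genes Elovl3 was the only one (median -0.40), and of 30 fatty acid oxidation genes Crot was the only one (median 0.02). The interaction was above 0 in 9 of the 33 lipogenesis genes, against 61.6% of all genes tested. Knockout CT0 replicate 1 stood apart for 2 lipogenic genes, Thrsp with 912 RPKM against 82.9 and 133 RPKM in the other libraries of its group, and Elovl6 with 185 RPKM against 16.5 and 21.8 RPKM. Without that library 11 of the 33 were above 0, with a median of -0.30, and over all 12 fits with a library left out the median ran from -0.66, without control CT0 replicate 3, to -0.30. Its part in the list's values was not tested further. Crot encodes the peroxisomal carnitine octanoyltransferase, which hands medium-chain acyl groups to carnitine. It had 222, 343 and 462 RPKM at CT12 and 114, 258 and 175 RPKM at CT0 in knockout livers, against 117, 104 and 162 RPKM at CT12 and 260.3, 337 and 325 RPKM at CT0 in control livers. Knockout livers at CT12 and at CT0 overlapped, and control livers at CT12 were below those at CT0. The interaction of 2.20 ± 0.43 (SE, limma adjusted p = 0.0272) was called in 5 of the 12 fits with a library left out and lost without knockout CT12 replicate 2 or 3, knockout CT0 replicate 3, control CT12 replicate 1 or 2, or control CT0 replicate 2 or 3 (highest adjusted p = 0.0815).

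Of 18 phospholipid genes, 2 were called above 0, with a median of 0.14. Chka, the choline kinase that begins phosphatidylcholine synthesis, had 38.2, 26.2 and 30.9 RPKM at CT12 and 51.6, 45.6 and 56.0 RPKM at CT0 in knockout livers, against 6.03, 6.33 and 6.82 RPKM at CT12 and 38.2, 50.6 and 41.1 RPKM at CT0 in control livers. Control livers at CT12 were far below the rest, and the interaction was 1.97 ± 0.20 (SE, limma adjusted p = 0.000504). Ept1, an ethanolamine phosphotransferase, had 0.66 ± 0.14 (SE, limma adjusted p = 0.0446) and was called in only 3 of the 12 fits with a library left out (highest adjusted p = 0.133). Acot7 was the only acyl-CoA thioesterase called of 10, at -0.90 ± 0.15 (SE, limma adjusted p = 0.0117), and the median of the 10 was -0.51.

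Of 25 bile acid genes, 2 were called above 0 and the median was 0.00. Hsd3b7, an enzyme of bile acid synthesis that acts on the sterol ring, had 266, 310.2 and 329.7 RPKM at CT12 and 300.4, 351 and 378 RPKM at CT0 in knockout livers, against 103, 108 and 135 RPKM at CT12 and 316, 363 and 379 RPKM at CT0 in control livers. Only control livers at CT12 stood apart, and the interaction was 1.43 ± 0.18 (SE, limma adjusted p = 0.00236). Abcb11, the pump that exports bile salts into the canaliculus, had 0.81 ± 0.16 (SE, limma adjusted p = 0.0301), called in 4 of the 12 fits with a library left out (highest adjusted p = 0.0911).

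Of 27 genes of glucose and glycogen metabolism, 2 were called, in opposite directions, and both act on glycogen. Gys2, the liver glycogen synthase, had 34.5, 41.4 and 40.2 RPKM at CT12 and 54.8, 40.5 and 41.2 RPKM at CT0 in knockout livers, against 157, 137 and 140.0 RPKM at CT12 and 45.0, 44.1 and 52.4 RPKM at CT0 in control livers. Ppp1r3c, a subunit that brings the activating phosphatase to glycogen synthase, had 54.2, 35.1 and 49.8 RPKM at CT12 and 27.9, 41.3 and 36.4 RPKM at CT0 in knockout livers, against 9.62, 8.14 and 17.3 RPKM at CT12 and 30.1, 41.1 and 44.6 RPKM at CT0 in control livers. In control livers at CT12, Gys2 was therefore above and Ppp1r3c below every other library. The interaction was -1.83 ± 0.18 for Gys2 (SE, limma adjusted p = 0.000368) and 2.12 ± 0.37 for Ppp1r3c (SE, limma adjusted p = 0.0162). The call of Ppp1r3c was lost without knockout CT12 replicate 3, control CT12 replicate 1 or control CT0 replicate 2 (highest adjusted p = 0.0523). The median of the list was -0.21.

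Drug metabolism held 3 called genes, all below 0, among 35 cytochrome P450 genes and their partners, whose median was -0.15, and none among 41 conjugation genes, whose median was -0.09 and of which 4 had an unadjusted p under 0.05. Cyp2a5, a coumarin hydroxylase, had 52.7, 48.5 and 45.9 RPKM at CT12 and 55.1, 32.6 and 47.6 RPKM at CT0 in knockout livers, against 879, 622 and 745 RPKM at CT12 and 88.6, 142 and 114 RPKM at CT0 in control livers. Cyp2a4 had 2.42, 3.39 and 2.60 RPKM at CT12 and 4.06, 1.92 and 2.44 RPKM at CT0 in knockout livers, against 56.9, 38.5 and 57.5 RPKM at CT12 and 6.81, 10.1 and 7.10 RPKM at CT0 in control livers. Both were high in control livers at CT12 alone, but Cyp2a4 and Cyp2a5 are nearly identical in sequence, so their reads may be shared and the pair is not counted as separate evidence. Their interactions were -2.56 ± 0.29 for Cyp2a5 (SE, limma adjusted p = 0.00116) and -2.56 ± 0.34 for Cyp2a4 (SE, limma adjusted p = 0.00294). Por, which passes electrons to all microsomal P450 enzymes, had 68.3, 46.4 and 47.4 RPKM at CT12 and 47.1, 35.8 and 43.1 RPKM at CT0 in knockout livers, against 207, 171 and 206 RPKM at CT12 and 40.1, 73.8 and 52.9 RPKM at CT0 in control livers. Its interaction was -1.49 ± 0.29 (SE, limma adjusted p = 0.0289), called in 4 of the 12 fits with a library left out (highest adjusted p = 0.0804).

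Clpx was the only gene called of 14 genes of heme metabolism, whose median was 0.18. It encodes the mitochondrial unfoldase that acts on the first enzyme of heme synthesis. Clpx had 186, 177 and 245 RPKM at CT12 and 156, 207 and 212 RPKM at CT0 in knockout livers, against 33.3, 31.0 and 38.2 RPKM at CT12 and 153, 176 and 188 RPKM at CT0 in control livers. The interaction was 2.40 ± 0.21 (SE, limma adjusted p = 0.000232). Cbs, which commits homocysteine to cysteine synthesis, was the only one called of 37 amino acid genes, whose median was -0.24. Cbs had 242, 243 and 237 RPKM at CT12 and 269, 243 and 269 RPKM at CT0 in knockout livers, against 88.3, 92.0 and 91.0 RPKM at CT12 and 235, 194 and 195 RPKM at CT0 in control livers. Its interaction was 1.08 ± 0.12 (SE, limma adjusted p = 0.00118). For both genes control livers at CT12 stood below the other 9 libraries without overlap.

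Nampt and Nmrk1 encode the enzymes that open the salvage routes to NAD from nicotinamide and from nicotinamide riboside. Nampt had 14, 15.1 and 15.6 RPKM at CT12 and 13.6, 11.6 and 12.0 RPKM at CT0 in knockout livers, against 48.2, 35.7 and 41.9 RPKM at CT12 and 10.9, 11.3 and 11.2 RPKM at CT0 in control livers. Nmrk1 had 8.43, 9.63 and 8.79 RPKM at CT12 and 11.6, 10.4 and 7.01 RPKM at CT0 in knockout livers, against 25.4, 24.2 and 23.4 RPKM at CT12 and 6.67, 7.21 and 7.20 RPKM at CT0 in control livers. For each of them control livers at CT12 were above all other libraries, and the interactions were -1.60 ± 0.15 for Nampt (SE, limma adjusted p = 0.000368) and -1.80 ± 0.21 for Nmrk1 (SE, limma adjusted p = 0.00126). Upp2, a uridine phosphorylase, followed the same shape with 45.7, 62.6 and 47.8 RPKM at CT12 and 32.3, 27.8 and 42.5 RPKM at CT0 in knockout livers, against 372, 337 and 325 RPKM at CT12 and 38.8, 51.9 and 62.9 RPKM at CT0 in control livers. Its interaction was -2.16 ± 0.27 (SE, limma adjusted p = 0.00185).

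**Figure D3:**
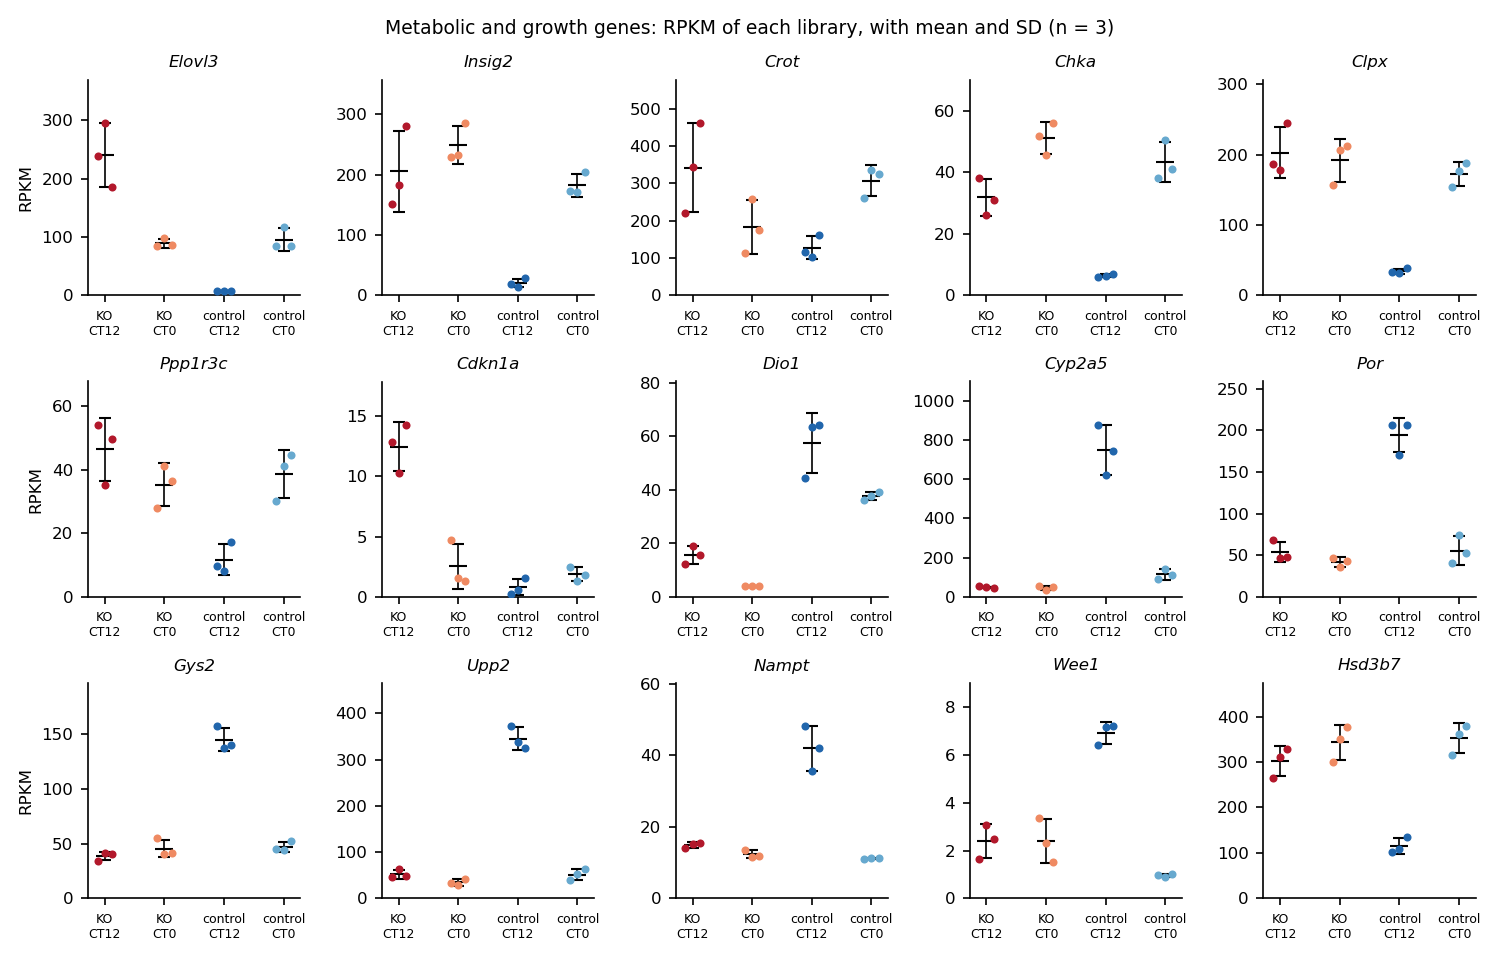
RPKM of each library (points) for 15 genes of metabolism, hormone action and growth, with the mean and SD of 3 libraries (bars), in the order knockout CT12, knockout CT0, control CT12 and control CT0. In most panels control livers at CT12 stand apart from the other 3 groups, below them for Elovl3, Insig2, Chka, Clpx, Ppp1r3c and Hsd3b7 and above them for Cyp2a5, Por, Gys2, Upp2, Nampt and Wee1, while Cdkn1a stands out in knockout livers at CT12.

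In the cell cycle list of 27 genes, whose median was 0.03, Cdkn1a was called above 0 and Wee1 below 0. Wee1, the kinase that holds CDK1 inactive and a clock-controlled gene with E-boxes in mouse, had 1.64, 3.07 and 2.49 RPKM at CT12 and 3.35, 2.32 and 1.53 RPKM at CT0 in knockout livers, against 6.42, 7.19 and 7.22 RPKM at CT12 and 0.981, 0.894 and 1.01 RPKM at CT0 in control livers. Control livers at CT12 were the highest group and control livers at CT0 the lowest, and the interaction was -2.33 ± 0.32 (SE, limma adjusted p = 0.00356). Tubb2a, a beta tubulin, was the only tubulin called of 12, whose median was 0.30. It had 47.5, 45.4 and 56.1 RPKM at CT12 and 124, 55.5 and 62.9 RPKM at CT0 in knockout livers, against 4.66, 4.26 and 7.86 RPKM at CT12 and 80.4, 77.7 and 50.9 RPKM at CT0 in control livers. Its interaction was 2.93 ± 0.42 (SE, limma adjusted p = 0.00481). Tubb2a is very similar to Tubb2b, with which its reads may be shared.

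The hormone-related genes Klf9, Cdkn1a and Dio1 were among the called genes with a larger time difference in knockout livers. Klf9 and Cdkn1a were called of 19 genes induced by glucocorticoids, whose median was 0.17. Klf9 had 18.2, 18.1 and 18.2 RPKM at CT12 and 9.42, 11.6 and 11.7 RPKM at CT0 in knockout livers, against 15.9, 15.7 and 16.8 RPKM at CT12 and 17.8, 15.2 and 16.2 RPKM at CT0 in control livers. All knockout CT12 values were above, and all knockout CT0 values below, every other library. The interaction of Klf9 was 0.74 ± 0.14 (SE, limma adjusted p = 0.0233), called in 5 of the 12 fits with a library left out (highest adjusted p = 0.0652). Dio1, the deiodinase that makes active thyroid hormone, was the only one called of 20 genes of the growth hormone and thyroid axes, whose median was 0.06. Dio1 had 12.4, 19.1 and 15.5 RPKM at CT12 and 3.90, 3.90 and 4.19 RPKM at CT0 in knockout livers, against 44.5, 63.5 and 64.4 RPKM at CT12 and 36.2, 37.7 and 39.2 RPKM at CT0 in control livers. It was lower in knockout livers at both times, CT12 was above CT0 in both genotypes, and it was the 1 called gene whose difference had the same sign in both genotypes and was larger in knockout livers (1.83) than in control livers (0.58). Its interaction was 1.25 ± 0.22 (SE, limma adjusted p = 0.0194) and was lost without knockout CT12 replicate 3 or control CT0 replicate 2 or 3 (highest adjusted p = 0.0565). In all, the time difference was larger in knockout livers for 9 of the 151 genes, the others being Adh1, Cars, Rabggtb, Spg20, Tpst2 and Uox.

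Of 33 acute phase genes, 31 were above 0 against 61.6% of all genes tested, the median was 0.43, and 2 were called. Fga and Fgg encode the alpha and gamma chains of fibrinogen. Fga had 3030.5, 1926 and 2199 RPKM at CT12 and 1463, 2013 and 1943 RPKM at CT0 in knockout livers, against 1408, 1287 and 1169.8 RPKM at CT12 and 2573, 2088 and 2131 RPKM at CT0 in control livers. Fgg had 4258, 2892 and 3227 RPKM at CT12 and 2292, 3246 and 3046 RPKM at CT0 in knockout livers, against 1945, 1799 and 1723 RPKM at CT12 and 3825, 3013 and 3170.3 RPKM at CT0 in control livers. Knockout livers at the 2 times overlapped for both, and control livers were lower at CT12 than at CT0. The interactions were 1.20 ± 0.25 for Fga (SE, limma adjusted p = 0.0372) and 1.14 ± 0.23 for Fgg (SE, limma adjusted p = 0.0378), each called in only 2 of the 12 fits with a library left out (highest adjusted p = 0.0965 for both). Fgb, which encodes the beta chain and is counted among the hepatocyte markers, had 1.13 ± 0.27 (SE, limma adjusted p = 0.0686). Neither the 23 heat shock genes (median -0.11, 1 with an unadjusted p under 0.05) nor the 19 immediate early genes (median 0.36, 4 with an unadjusted p under 0.05) held a called gene by limma. The member with the smallest p was Hspe1, a mitochondrial chaperonin, among the heat shock genes (-0.54 ± 0.20, limma adjusted p = 0.274), Ier5 among the immediate early genes (0.79 ± 0.24, limma adjusted p = 0.179) and the sulfotransferase Sult1d1 among the conjugation genes (-0.83 ± 0.24, limma adjusted p = 0.153).

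**Figure D4:**
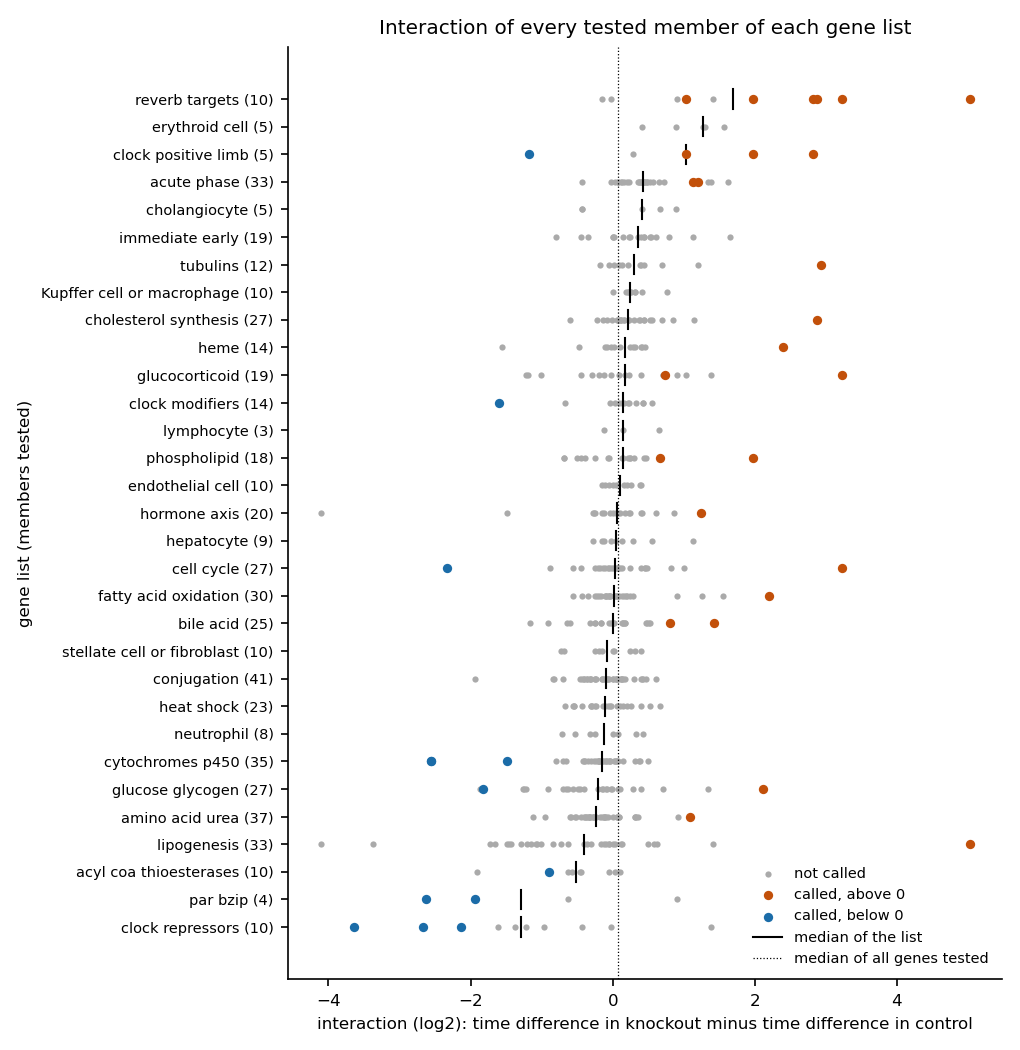
Interaction (log2) of every tested member of 31 gene lists, with called members in orange (above 0) and blue (below 0), the median of each list as a black bar and the median of all genes tested, 0.07, as a dotted line. REV-ERB targets and the activating limb lie highest among the pathway lists, clock repressors and PAR bZIP factors lowest, and most metabolic lists have medians near 0 with 1 to 3 called members. Over all genes tested, 1.32% were called.

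Outside these lists stood 119 of the 151 called genes, and those among the 15 largest in each direction are named here. Spon2, a secreted matrix protein, had 6.20, 10.9 and 14.1 RPKM at CT12 and 12.6, 12.4 and 11.3 RPKM at CT0 in knockout livers, against 0.527, 0.700 and 0.600 RPKM at CT12 and 6.01, 8.63 and 7.06 RPKM at CT0 in control livers. Its interaction was 2.51 ± 0.32 (SE, limma adjusted p = 0.00242). Avpr1a, the vasopressin receptor of the liver, had 12.9, 14.6 and 11.5 RPKM at CT12 and 12.9, 15.9 and 14 RPKM at CT0 in knockout livers, against 3.60, 3.88 and 3.41 RPKM at CT12 and 18.6, 18.7 and 15.5 RPKM at CT0 in control livers. Here the interaction was 2.00 ± 0.17 (SE, limma adjusted p = 0.000176). Both were lowest in control livers at CT12 without overlap. The same held for Loxl4, a lysyl oxidase of the matrix (2.00 ± 0.34, limma adjusted p = 0.0146), Ndrg1 (1.96 ± 0.34, limma adjusted p = 0.0147) and Mad2l2, a subunit of a DNA polymerase used in repair (1.87 ± 0.29, limma adjusted p = 0.00846).

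Of the genes below 0, Gpcpd1, a phosphodiesterase that breaks down glycerophosphocholine, had 23.7, 23.4 and 23.7 RPKM at CT12 and 15.3, 23.0 and 23.2 RPKM at CT0 in knockout livers, against 131, 73.7 and 85.9 RPKM at CT12 and 16.7, 29.1 and 31.7 RPKM at CT0 in control livers. Its interaction was -1.67 ± 0.36 (SE, limma adjusted p = 0.0442) and was called in only 3 of the 12 fits with a library left out (highest adjusted p = 0.104). D0H4S114, listed by RefSeq as Nrep, had 1.42, 3.29 and 2.00 RPKM at CT12 and 1.46, 2.12 and 1.13 RPKM at CT0 in knockout livers, against 29.4, 13.5 and 22.2 RPKM at CT12 and 2.45, 3.32 and 2.42 RPKM at CT0 in control livers. The interaction was -2.35 ± 0.42 (SE, limma adjusted p = 0.0179), called in 8 of the 12 such fits (highest adjusted p = 0.0525). The predicted genes AC148977.1 and Gm14403 were also among the 15 largest and were called in 10 and 6 of those fits. AC148977.1 had 2.69, 1.54 and 2.20 RPKM in control livers at CT12 and at most 0.365 RPKM (7 recovered reads) in any other library. It therefore passed the filter only through the group where it was high. Without control CT12 replicate 1 or replicate 3 it fell below the filter and was not tested.

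**Figure D5:**
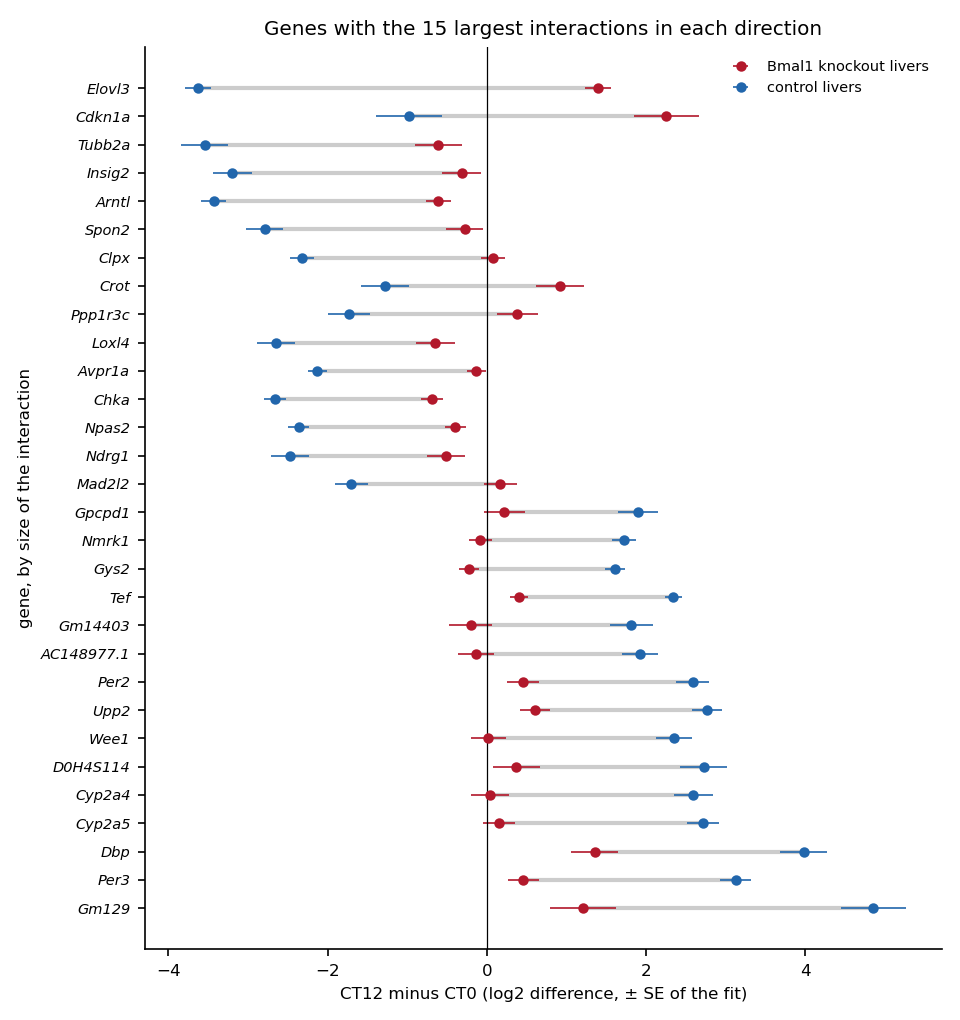
CT12 minus CT0 difference (log2, with the SE of the fit) in Bmal1 knockout livers (red) and control livers (blue) for the genes with the 15 largest called interactions above 0 (upper) and below 0 (lower). The red points lie near 0 for most genes. Among genes with blue points below 0, Elovl3, Cdkn1a and Crot have the red points furthest above 0. In the lower part, Gm129 and Dbp have red points at 1.21 and 1.36.

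Promoter entries were found for 9156 of the 11444 genes tested, for 90 of the 111 called above 0 and for 30 of the 40 called below 0. The TAGGTCA element was in 7 windows (7.78%) of genes above 0 and in none of the 30 below 0, against 2.63% of all. Those 7 were Arntl, Abcb11, Tjp3, Dpp9, Golga2, Leo1 and 4932438A13Rik. The D-box was in 1 window (1.11%) of genes above 0 (Rabggtb) and in 4 (13.3%) of genes below 0, against 1.98% of all, and those 4 were Per3, Homer2, Map2k6 and Slc16a12. The E-box was in 10 windows (11.1%) of genes above 0 and in 5 (16.7%) below 0, against 11.8% of all. The 5 were Gm129, Tef, Adh1, Pdxk and Slc16a12. These shares are descriptions of 300-base windows with no test. A window without a match says only that these letters are not in it.

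The 8 libraries of the Nr1d1 experiment came from other mice. There the time differences were taken within each of 2 replicate numbers, because replicate 2 is described as paired-end, with no test. Nr1d1 itself had 11.1 and 28.4 RPKM at CT12 and 6.10 and 32.9 RPKM at CT0 in libraries labelled Nr1d1 knockout, against 3.45 and 33.4 RPKM at CT12 and 0.37 and 22.0 RPKM at CT0 in their controls, so its whole-transcript level does not check those labels. In these controls the CT12 minus CT0 difference had the sign seen in Bmal1 controls in both replicates for 90 of the 111 genes above 0 (81.1%) and for all 40 genes below 0, against 34.6% of all genes tested. The interaction of the Nr1d1 genotype with time had the same sign as that of Bmal1 in both replicates for 88 of the 111 (79.3%) and for 25 of the 40 (62.5%), against 32.1% of all genes tested. The called genes were chosen on a contrast that holds the Bmal1 control time difference. Its median size was 1.11 in them and 0.19 in all genes tested, where small differences can take either sign. Each interaction also subtracts a control time difference. Higher shares in the called genes are therefore no separate support for their calls.

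Individual genes shared or did not share their shape between the experiments. Arntl had an interaction of 3.10 and 4.44 in the 2 Nr1d1 replicates, Insig2 of 2.21 and 1.76, and Chka of 1.90 and 2.79, each with the sign seen in the Bmal1 experiment. Dbp had -2.91 and -3.30 and Per3 had -1.38 and -1.42, and they are among the 25 of 40 genes below 0 that kept that sign in both replicates. The replicates differed in sign for Cyp2a4 (-2.35 and 0.48), Upp2 (-1.06 and 0.46) and Nmrk1 (-0.57 and 0.61), among others. Crot had 0.20 and 0.35, and Dio1 had -1.20 and -0.84, opposite to its value of 1.25 with Bmal1. Elovl3 disagreed between the Nr1d1 replicates, at 2.50 and -2.01, and its CT12 minus CT0 difference in the controls there was -6.91 and 0.65. Whether the paired-end libraries of replicate 2 had a part in this was not tested.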

How the data were processed

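The 12 libraries were made from total liver RNA with a poly(A)-selecting kit whose protocol does not mark strand. Their deposited RPKM values, 1 per transcript and library, were computed by the authors. TopHat2, Bowtie, bedtools 2.19.1 and build mm9 are named in the submitters' processing notes, which state neither their roles nor the annotation, and the reads counted as depth are also not given in the sources used here. Read depth is therefore known only as relative depth between libraries, which was recovered from the commonest ratios of RPKM values under 0.2, with whole reads accepted within 0.05.

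Of 46585 transcripts, 1 was kept for each of 22322 symbols, and 0.5 was added before the log2, which understates the change of genes with low values. limma 3.58.1 in R 4.3.3 fitted the 4 group means with a mean trend, and two-sided p-values were Benjamini-Hochberg adjusted over all genes tested, with a call under 0.05. The code was tested on simulated data. Genes were named by rule: all clock genes, the 15 largest called interactions in each direction, and in every other list up to 4 called genes, or else the gene with the smallest p. A few genes that the rule names are not reported here. The members and the 33 lists, which overlap, were chosen with earlier results of these data known. No list, marker sum, promoter share or value of the Nr1d1 experiment was tested. Antisense or overlapping genes cannot be told apart. Alternatives changed the pseudocount, filter, scaling, transcript choice, variance model, replicate block and libraries used.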

Additional observations from a re-analysis of the deposited data

Results flagged for a closer look

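The time difference differed between genotypes in 151 genes by limma's test of the interaction, and all of them are covered by the counts above. In 3 of these the difference was called in each genotype alone and ran in opposite directions. Elovl3 had the largest interaction, 5.02, with 1.40 in knockout livers and -3.62 in control livers.

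Dirc2, which encodes a membrane transporter of lysosomes, had 9.90, 9.48 and 10.4 RPKM at CT12 and 5.83, 7.32 and 7.10 RPKM at CT0 in knockout livers, against 5.04, 5.04 and 4.62 RPKM at CT12 and 6.27, 7.89 and 8.15 RPKM at CT0 in control livers. Its interaction was 1.08, with 0.53 in knockout livers and -0.55 in control livers. Inmt, an indolethylamine N-methyltransferase, had 244, 235 and 297 RPKM at CT12 and 427, 420.0 and 338 RPKM at CT0 in knockout livers, against 769, 744 and 643 RPKM at CT12 and 402, 418 and 432 RPKM at CT0 in control livers. Its interaction was -1.39, with -0.61 in knockout livers and 0.78 in control livers. For Inmt the control CT12 libraries were the highest and the knockout CT12 libraries the lowest, with no overlap with the other groups. No group has 4 or more libraries, so single libraries were not examined for distance from their group by a rule.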

How the results depend on the processing

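The 151 calls became 147 and 149 with 0.1 and 1 RPKM added, 118 with no filter on mean RPKM, 157 with a mean of at least 1, 138 with quantile normalization, 165 with the mean over transcripts, 118 without a mean trend and 207 with sample weights. Under these 8 alternatives between 111 and 148 of the 151 were called again, and all of the 151 that were tested kept their sign. With the median of ratios the genes below 0 numbered 63, against 40, and 125 of the 151 were called again. With each library left out in turn there were 81 to 141 calls, 53 to 104 above 0 and 24 to 39 below 0, of which 79 to 120 were among the 151. Without knockout CT0 replicate 3 there were 70 above 0. The causes were not tested.

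With the replicate number as a block, 129 genes were called, 112 of them among the 151, 91 above 0 and 38 below 0. Same-numbered libraries deviated from their group means with correlations of -0.06 to 0.12 (median 0.00) over 18 pairs. Libraries of other numbers had correlations of -0.16 to 0.10 (median -0.01) over 36 pairs. Of the 12 libraries, 6 correlated best with their own number. Little sign of pairing was seen, but with 3 libraries in each group these values cannot exclude it.

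Among named genes, only the interaction of Cry1 took the opposite sign, at 0.0145 with sample weights and between -0.0848 and 0.0906 with a library left out. Depth is known only in relative terms. Values near 0 RPKM in control livers at CT12 (Npas2) or CT0 (Gm129) rest on 0 to 2 recovered reads.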

Other observations

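Called genes outside the lists included several of one-carbon, glycine and sulfur metabolism, grouped here after their values were seen and not tested as a group. Gldc and Amt, subunits of the glycine cleavage system, had interactions of 1.17 ± 0.14 (SE, limma adjusted p = 0.00185) and 1.01 ± 0.16 (SE, limma adjusted p = 0.00815). Gldc had 73.0, 74.4 and 79.7 RPKM at CT12 and 77.7, 82.1 and 87.0 RPKM at CT0 in knockout livers, against 30.0, 22.8 and 29.0 RPKM at CT12 and 67.5, 64.3 and 68.4 RPKM at CT0 in control livers. Fpgs, which retains folates in cells, had 0.96 ± 0.21 (SE, limma adjusted p = 0.0438), and Ethe1, a sulfur dioxygenase of mitochondria, had 1.09 ± 0.18 (SE, limma adjusted p = 0.0120).

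Genes of nucleoside breakdown were called in both directions: Pnp, the purine nucleoside phosphorylase, at 0.77 ± 0.11 (SE, limma adjusted p = 0.00521) and Tymp, the thymidine phosphorylase, at 1.43 ± 0.23 (SE, limma adjusted p = 0.0114), while Upp2 was below 0. Uox, the last enzyme of purine breakdown in mouse, had 538, 627 and 673 RPKM at CT12 and 1119, 1018 and 907 RPKM at CT0 in knockout livers, against 1473, 1231 and 1238 RPKM at CT12 and 1103, 935 and 1169 RPKM at CT0 in control livers. Its interaction was -1.03 ± 0.18 (SE, limma adjusted p = 0.0151). All knockout CT12 values were below, and all control CT12 values above, every other library. Cldn1 and Tjp3, proteins of tight junctions, had 1.65 ± 0.26 (SE, limma adjusted p = 0.00900) and 1.60 ± 0.20 (SE, limma adjusted p = 0.00185). Serpina6, the corticosteroid-binding globulin of plasma, had 47.2, 43.9 and 49.2 RPKM at CT12 and 60.6, 57.2 and 38.9 RPKM at CT0 in knockout livers, against 166, 169 and 219 RPKM at CT12 and 68.0, 88.4 and 74.0 RPKM at CT0 in control livers, with an interaction of -1.39 ± 0.23 (SE, limma adjusted p = 0.0131).

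Some large estimates were not called and had libraries of a group that differed. Rgs16, a regulator of G protein signaling, had an interaction of -4.44 ± 1.24 (SE, limma adjusted p = 0.131). It had 0.178, 0.0323 and 0.188 RPKM in knockout livers at CT12 and 2.52, 0.150 and 0.224 RPKM in knockout livers at CT0, against 34.5, 17.4 and 22.7 RPKM in control livers at CT12 and 0.136, 0.607 and 11 RPKM in control livers at CT0. Thrsp, a lipogenic factor, had -4.11 ± 0.97 (SE, limma adjusted p = 0.0686), and Elovl6, a fatty acid elongase, had -3.37 ± 1.01 (SE, limma adjusted p = 0.17). Both were highest in knockout CT0 replicate 1.

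Klhdc1, Klhdc2 and Lrr1 lie near one another on mouse chromosome 12 in GRCm38.p6, where Rpl36al, Mgat2 and Pole2 lie between Lrr1 and Klhdc1. Klhdc1, Klhdc2 and Lrr1 were high in the same 3 knockout libraries, CT12 replicates 2 and 3 and CT0 replicate 3. Klhdc1 had 69.4, 107 and 114 RPKM in these and 0 to 1.34 RPKM in the other 9 libraries. Klhdc2 had 114, 166 and 172 RPKM in these and 13.6 to 20.1 RPKM in the other 9, and Lrr1 had 37.2, 57.3 and 61.0 RPKM in these and 0 to 0.701 RPKM in the other 9. The nearby genes Rpl36al and Nemf showed no such split, at 128 to 138 RPKM and 12.2 to 17.1 RPKM in the 3 libraries and 117 to 145 RPKM and 8.99 to 15.0 RPKM in the other 9. Mgat2, also nearby, had 18.4 to 22.7 RPKM in the 3 libraries and 10.4 to 17.6 RPKM in the other 9, without overlap. Pole2 had 3.35 to 3.97 RPKM in the 3 libraries and 0.201 to 4.78 RPKM in the other 9, of which control CT0 replicate 2 was the highest. These genes had no called interaction, and what the 3 mice share is not given in the sources used here.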
